A study of Mus musculus with 8 samples.

Results

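Genes of the extracellular matrix were examined in mouse heart 4 hours after a cardiac glycoside. The set is a list of 39 genes chosen by function, in 4 classes. These are 17 basement membrane genes, 8 interstitial collagen genes, 5 genes of adhesive and matricellular glycoproteins, and 9 genes of remodelling enzymes and their inhibitors. A value was available for 38 of the 39, out of 22180 genes on the array. Loxl2 is the exception, since both of its probe sets are annotated to a second gene as well, and it was not analysed here.

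The digoxin group holds 5 hearts of mice given 1 mg/kg of digoxin, an inhibitor of the Na/K-ATPase, into the peritoneum at ZT5 and killed at ZT9, where ZT0 is lights-on. The vehicle group holds 3 hearts of mice given a co-solvent of ethanol, propylene glycol, citric acid and sodium phosphate at the same times. All were wild-type males of 8 to 10 weeks, labelled C57BL6JRj and called C57BL6/J in the growth protocol, on standard chow. Affymetrix Mouse Gene 2.0 ST arrays were used for RNA of the pulverised heart, and each array is taken as 1 mouse. Each probe set is centred on the log2 scale, and a value therefore says how one array stands to another but not how much RNA a gene makes. For the same reason the labelled tissue could not be checked against its markers. Whole hearts were used, so fewer cells of a type and less RNA per cell cannot be told apart.

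The matrix of the heart has a pair of main compartments. Basement membranes are thin sheets around each cardiomyocyte and beneath the endothelium, built from a laminin network and a collagen IV network that nidogens and perlecan link together. Between the cells lies the interstitial matrix, made mainly by fibroblasts, with fibrils of collagens I and III that carry load and a beaded network of collagen VI. Lysyl oxidases crosslink these fibres, metalloproteinases of the MMP and ADAMTS families cut them, and TIMPs inhibit those proteases.

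In digoxin hearts 2 of the 38 genes rose and none fell at an adjusted p under 0.05 in limma, with p-values adjusted over all 22180 genes. Both encode collagen IV chains of the basement membrane, Col4a1 and Col4a2. They make up 5.26% of the 38, against 1.36% of all genes past the test in either direction and 0.947% that rose. No interstitial collagen, glycoprotein or remodelling gene of the set passed. In 5 genes, Col4a1, Col4a2, Lama5, Lox and Timp3, every digoxin array lay above every vehicle array, and in none did every digoxin array lie below. That is 13.2% of the 38, against 8.16% of all genes whose groups did not overlap, 4.4% with digoxin higher and 3.76% with digoxin lower.

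The count of members depended on the setting. It was 3 with quantile normalization (1.76% of all genes passed), 3 with array weights (2.77%), 1 at a threshold of 0.01 (0.532%), 0 with replicate numbers as a block (0.0541%) and 1 to 3 with 1 array left out (0.748% to 1.69%). It was 2 with a covariate for the atrial markers (1.45%) and 3 after removal of vehicle heart 3 along with digoxin heart 4 (2.25%). It was 2 after removal of digoxin hearts 1 and 4 (0.55%), chosen after the values were seen. Those hearts were the lowest of their group for Col4a1 and Col4a2.

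**Figure D1:**
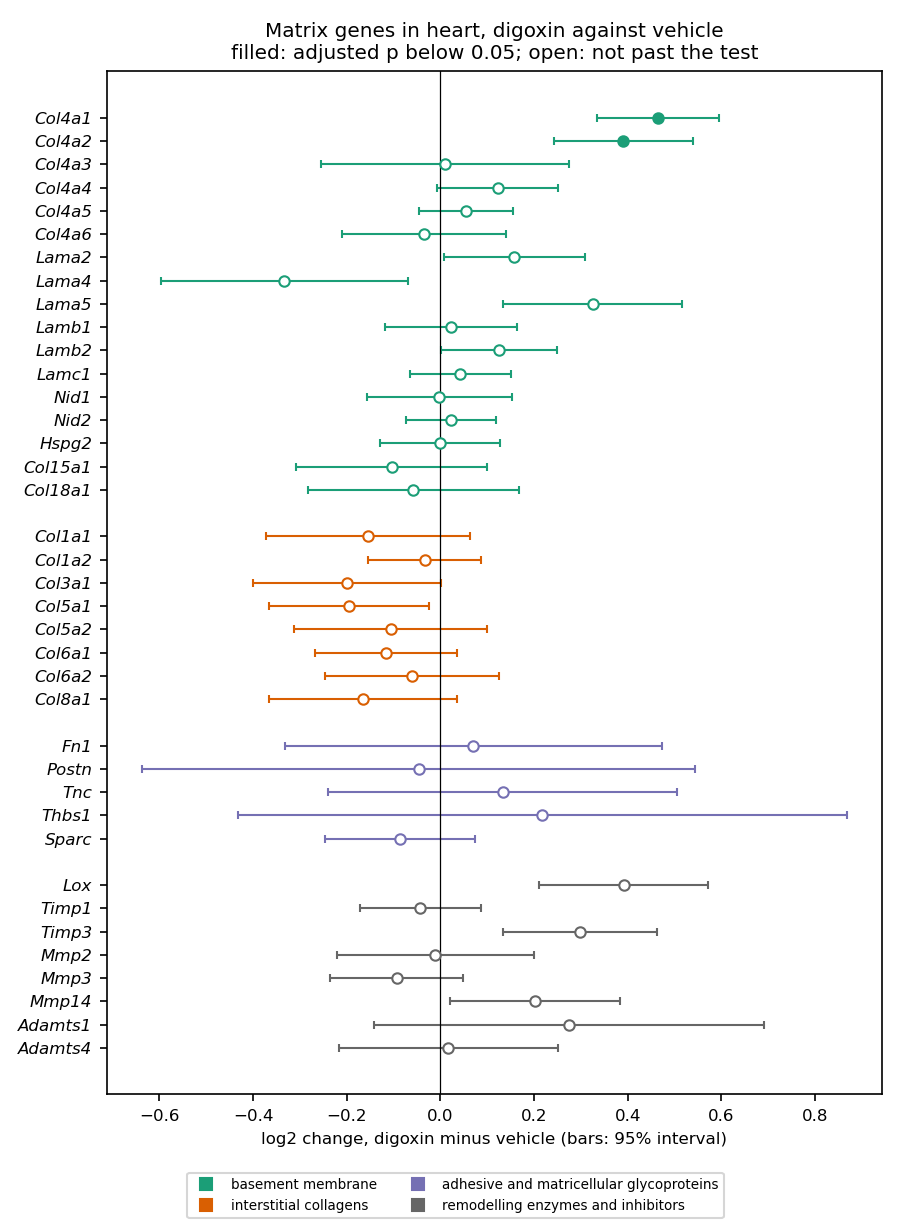
Log2 change (digoxin minus vehicle, horizontal axis) of the 38 measured matrix genes by class, with 95% intervals from limma over 5 digoxin and 3 vehicle arrays; filled points passed at an adjusted p under 0.05. Col4a1 (0.47) and Col4a2 (0.39) are the filled points, and all 8 interstitial collagens lie left of 0 with open points.

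Col4a1 and Col4a2 encode the chains of the collagen IV trimer found in nearly all basement membranes. The genes lie head to head and are transcribed in opposite directions from a common promoter region. RefSeq promoter windows (GRCm38.p6, from 250 bases before to 50 bases after the annotated start) were found for 27 of the 39 genes. The windows of this pair are shown because both genes rose. They are chr8:11312777-11313076 on the minus strand for Col4a1 and chr8:11312555-11312854 on the plus strand for Col4a2, each printed 5′ to 3′ on its own strand, with the stretch that both windows contain in capitals.
Col4a1: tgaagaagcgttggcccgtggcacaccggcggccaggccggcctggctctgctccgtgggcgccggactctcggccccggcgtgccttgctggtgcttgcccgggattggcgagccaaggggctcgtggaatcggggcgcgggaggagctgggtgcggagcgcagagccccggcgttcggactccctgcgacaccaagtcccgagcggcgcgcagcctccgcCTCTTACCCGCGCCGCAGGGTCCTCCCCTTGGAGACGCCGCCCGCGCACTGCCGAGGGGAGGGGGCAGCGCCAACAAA
Col4a2: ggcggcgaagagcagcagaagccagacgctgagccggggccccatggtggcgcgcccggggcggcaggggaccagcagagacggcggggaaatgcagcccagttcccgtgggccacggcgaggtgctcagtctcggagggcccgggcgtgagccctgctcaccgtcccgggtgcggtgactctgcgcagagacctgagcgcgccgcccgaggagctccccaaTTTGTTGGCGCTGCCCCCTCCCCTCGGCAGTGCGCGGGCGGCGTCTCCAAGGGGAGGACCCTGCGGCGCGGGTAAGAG
The shared stretch is 78 bases, and the annotated starts lie 21 bases apart, with the transcripts overlapping at their first bases. Most of each window therefore lies in the gene on the other side. Searched on both strands, the Col4a2 window held 3 matches to the GC box GGGCGG and the Col4a1 window 1, and 35.7% of the 32851 promoter windows of the mouse table hold at least 1. The Col4a1 match lies in the shared stretch and is the same site as 1 of the 3 in the Col4a2 window. Each window held 1 match to the CCAAT box CCAAT, which 37.4% of windows hold. Neither window held the TATA box TATAAA (13.6% of windows), the glucocorticoid receptor half-site AGAACA (19.0%) or the AP-1 site TGAGTCA (5.2%).

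Col4a1 read 0.00, 0.09, 0.07, -0.07 and 0.11 in digoxin hearts 1 to 5, against -0.51, -0.42 and -0.35 in vehicle hearts 1 to 3. Every digoxin heart was above every vehicle heart, and the gap between the groups was wider than the range within either. The log2 change was 0.47 (SE 0.06, 95% interval 0.33 to 0.60, adjusted p = 0.0063 in limma), or 1.38 times the vehicle level. Col4a2 read -0.01, 0.22, 0.08, 0.00 and 0.19 in digoxin hearts, against -0.33, -0.33 and -0.22 in vehicle hearts. Its groups were separate too, and its log2 change was 0.39 (SE 0.07, 95% interval 0.24 to 0.54, adjusted p = 0.027 in limma), or 1.31 times the vehicle level. Within the digoxin group, hearts 2 and 5 were highest for both chains and hearts 1 and 4 lowest.

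The call of Col4a1 held without each of the 8 arrays in turn (adjusted p 0.0072 to 0.032), whereas that of Col4a2 ended on removal of digoxin heart 2, 3 or 5, or of vehicle heart 1 or 2. Its largest adjusted p was 0.10, in the fit lacking vehicle heart 2. Both calls ended with quantile normalization between arrays, where the log2 changes were 0.52 (SE 0.12, adjusted p = 0.084) and 0.44 (SE 0.10, adjusted p = 0.073). That setting was applied to values already centred per probe set, so it equalised deviations between arrays and not levels. The 12 endothelial markers, of cells that rest on a collagen IV membrane, had list means of -0.11 to 0.01 in digoxin hearts and -0.12 to 0.07 in vehicle hearts, and none passed the test. Their median log2 change was -0.11, but they did not move as one. Cdh5, the gene of VE-cadherin, was higher in every digoxin heart (0.23, SE 0.06, adjusted p = 0.13) and Egfl7, a secreted endothelial protein gene, was lower in every one (-0.16, SE 0.05, adjusted p = 0.20), both named after their values were seen. The part of these markers in the collagen IV values was not tested. With a covariate for the mean of the atrial markers, the changes were 0.40 for Col4a1 (adjusted p = 0.0099) and 0.32 for Col4a2 (adjusted p = 0.047).

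The other collagen IV chains did not pass. Col4a3, Col4a4 and Col4a5 form a second trimer, known best from the kidney filter, and Col4a6 joins Col4a5 in smooth muscle basement membranes. Their log2 changes were 0.01 (95% interval -0.26 to 0.27) for Col4a3, 0.12 (-0.01 to 0.25) for Col4a4, 0.06 (-0.05 to 0.16) for Col4a5 and -0.03 (-0.21 to 0.14) for Col4a6. In each of them the groups overlapped. Col4a3 stood between -0.01 and 0.10 in digoxin hearts and at -0.12, -0.14 and 0.41 in vehicle hearts, so that vehicle heart 3 alone was high. Col4a5 and Col4a6 are also neighbours on opposite strands, with annotated starts 1343 bases apart in the RefSeq windows.

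**Figure D2:**
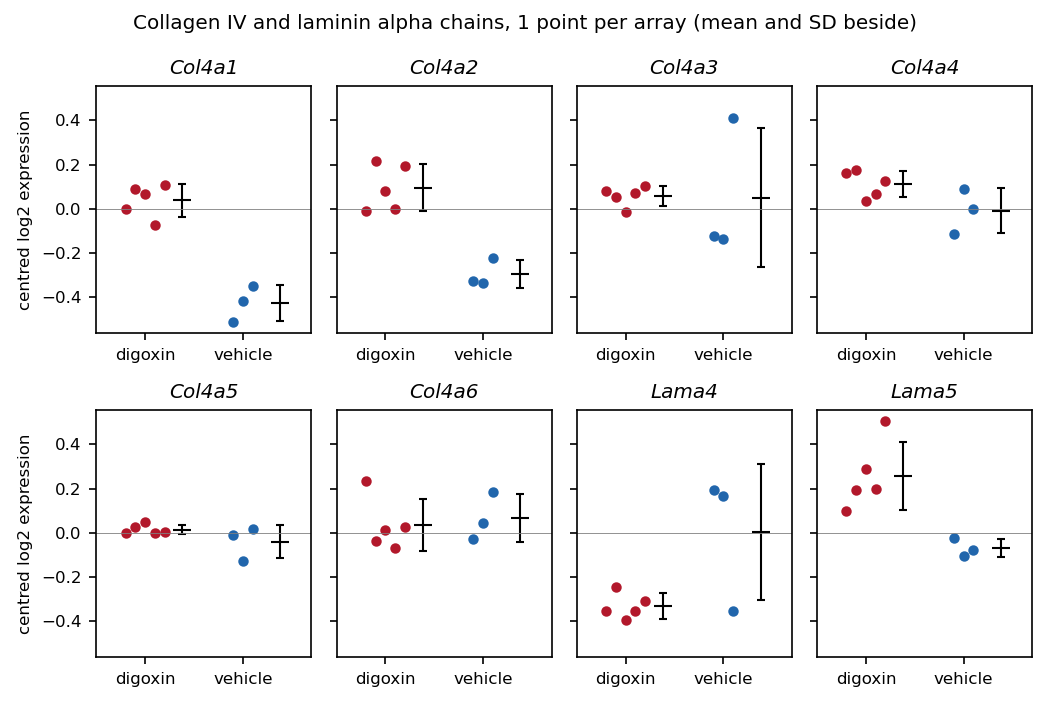
Centred log2 expression (vertical axis) of the 6 collagen IV chain genes and of Lama4 and Lama5 on each of 5 digoxin arrays (left, red) and 3 vehicle arrays (right, blue), with the mean and SD beside the points. Col4a1 and Col4a2 show separate groups, and in Lama4 vehicle heart 3 lies among the digoxin hearts at -0.35.

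Laminins are trimers of an alpha, a beta and a gamma chain, and the alpha chain sets which receptors they bind. None of the 6 laminin chain genes passed with all arrays. Lama4, the alpha chain of an endothelial laminin, had the largest negative change of all 38 genes. It read -0.36, -0.24, -0.39, -0.35 and -0.31 in digoxin hearts, against 0.19, 0.17 and -0.35 in vehicle hearts. The digoxin hearts and vehicle heart 3 were low and the other vehicle hearts high, so the groups overlapped, and the log2 change of -0.33 (SE 0.12) had an adjusted p of 0.28 in limma. Without vehicle replicate 3 it was -0.51 (SE 0.05, adjusted p = 0.0028), and Lama4 passed. It also passed with array weights (adjusted p = 0.011), with quantile normalization (adjusted p = 0.046) and after removal of vehicle heart 3 along with digoxin heart 4 (adjusted p = 0.0064). Both removals take out the only vehicle heart that lay among the digoxin hearts and leave only the high vehicle hearts. They are therefore not separate support for a fall. Among the 8 arrays the values of vehicle heart 3 spread most widely over all probe sets (interquartile range 0.216), while those of the remaining arrays spread over 0.0792 to 0.115.

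Lama5, an alpha chain of vascular and epithelial laminins, moved the other way. It read 0.10, 0.19, 0.29, 0.20 and 0.50 in digoxin hearts, against -0.02, -0.10 and -0.08 in vehicle hearts. All digoxin hearts were higher, but heart 5 stood well above the rest, and the log2 change of 0.32 (SE 0.08, 95% interval 0.13 to 0.52) did not pass (adjusted p = 0.14 in limma). It passed in none of the 20 alternative settings (adjusted p 0.091 to 0.49). The difference Lama5 minus Lama4 within an array was 0.44 to 0.81 in digoxin hearts and -0.27 to 0.28 in vehicle hearts. That difference was chosen after the values were seen and was not tested. Lama2, the alpha chain of the muscle laminin, had a log2 change of 0.16 (95% interval 0.01 to 0.31, adjusted p = 0.38), and Lamb2, a beta chain, had 0.13 (0.00 to 0.25, adjusted p = 0.40). The changes were 0.02 (-0.12 to 0.16) for the beta chain gene Lamb1 and 0.04 (-0.07 to 0.15) for the gamma chain gene Lamc1.

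The linkers and proteoglycans of the basement membrane had small changes. Nid1 and Nid2, the nidogens that bridge laminin and collagen IV, had log2 changes of -0.00 (95% interval -0.16 to 0.15) and 0.02 (-0.07 to 0.12). Hspg2, the gene of the heparan sulphate proteoglycan perlecan, had -0.00 (-0.13 to 0.13). Col15a1 and Col18a1, collagens with glycosaminoglycan chains at the outer face of basement membranes, had -0.10 (-0.31 to 0.10) and -0.06 (-0.28 to 0.17). Over the 17 basement membrane genes the median log2 change was 0.02, against -0.01 over all genes. Of the 17 changes 11 were positive and 35.3% were negative, against 55.6% negative among all genes.

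Of the interstitial collagens, none of 8 passed and all 8 had a negative log2 change, with a median of -0.14. Among all genes 55.6% of changes were negative, and genes on the same arrays are not independent observations. In all 8 genes the groups overlapped. Col1a1, the alpha 1 chain of collagen I, read 0.21, -0.05, -0.18, -0.02 and -0.22 in digoxin hearts, against 0.01, 0.09 and 0.20 in vehicle hearts. Its partner Col1a2 read 0.06, -0.02, -0.10, 0.11 and -0.02 in digoxin hearts, against 0.06, 0.01 and 0.05 in vehicle hearts. Heart 1 of the digoxin group was as high as any vehicle heart for Col1a1, and the chains of collagen I had log2 changes of -0.15 (95% interval -0.37 to 0.06) and -0.03 (-0.15 to 0.09). The 2 probe sets of Col1a2 stood at -0.08 and 0.01.

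Col3a1, the single chain of collagen III, read 0.05, -0.16, -0.31, -0.02 and -0.26 in digoxin hearts, against 0.13, 0.07 and -0.03 in vehicle hearts. Hearts 3 and 5 of the digoxin group were lowest, as they were for Col1a1, and the change was -0.20 (SE 0.09, 95% interval -0.40 to 0.00, adjusted p = 0.41 in limma). Col5a1, which takes part in starting collagen I fibrils, read -0.04, 0.01, -0.05, -0.07 and -0.06 in digoxin hearts, against -0.02, 0.12 and 0.35 in vehicle hearts. The digoxin hearts lay close together, vehicle heart 3 was highest, and the change was -0.20 (SE 0.08, adjusted p = 0.34). Without vehicle replicate 3 it was -0.09. The remaining changes were -0.11 for Col5a2, -0.12 for Col6a1, -0.06 for Col6a2 and -0.17 for Col8a1, a short-chain collagen of vessels. Col8a1 had -0.29 without vehicle replicate 1 and -0.05 without vehicle replicate 3. Col6a1 had probe sets at -0.04 and -0.20, and Col6a2 had a positive change in 2 of 20 alternative settings. Of the 10 fibroblast markers none passed, and their list mean was -0.03 to 0.14 in digoxin hearts and -0.07 to 0.23 in vehicle hearts. In 3 of the 10 every digoxin heart was higher, against 4.4% of all genes, and in 1 every digoxin heart was lower, against 3.76% of all genes. Their part in the collagen values was not tested.

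**Figure D3:**
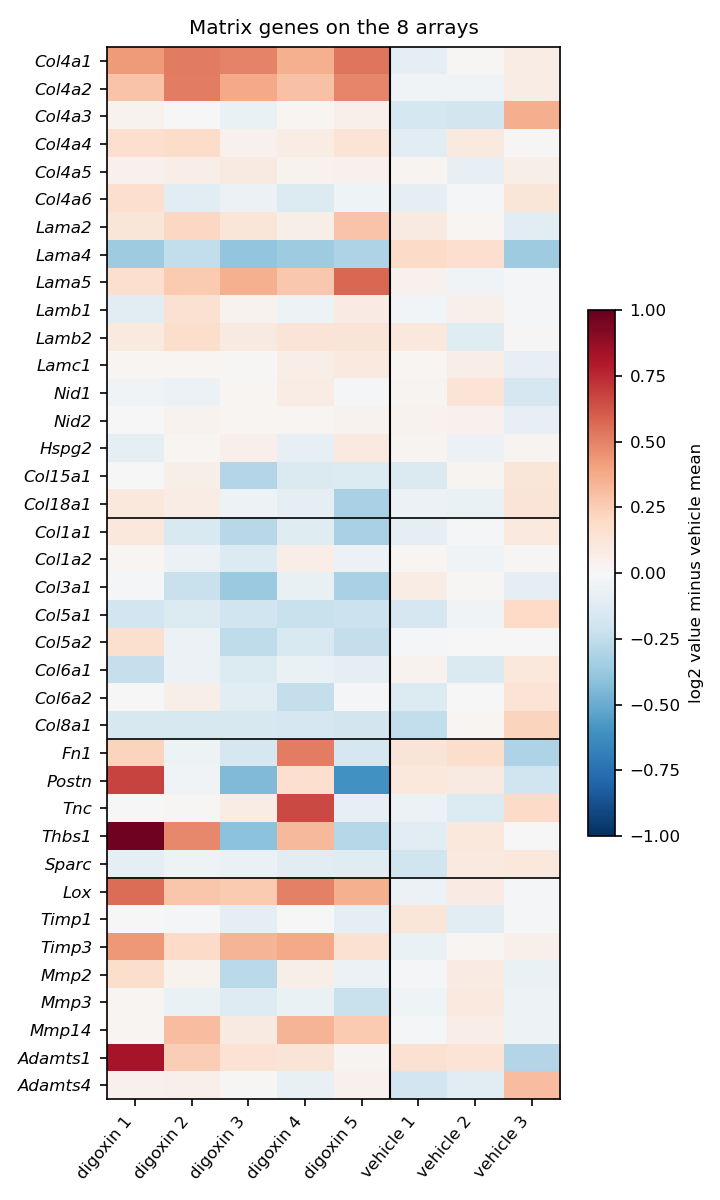
Centred log2 value minus the vehicle mean (colour) of the 38 matrix genes (rows, classes divided by lines) on the 5 digoxin arrays (left) and 3 vehicle arrays (right). Col4a1 and Col4a2 are red in every digoxin heart, the interstitial collagens are pale to blue in most, and Thbs1 and Postn differ most between single digoxin hearts.

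The comparison of basement membrane with interstitial matrix was made within each array, so that a shift common to all genes of an array cancels. A wider spread of values on an array, as in vehicle heart 3, does not cancel. The mean over the 17 basement membrane genes minus the mean over the 13 interstitial genes (8 collagens and 5 glycoproteins) was -0.20, -0.01, 0.10, -0.17 and 0.16 in digoxin hearts, against -0.11, -0.16 and -0.18 in vehicle hearts. Digoxin hearts 2, 3 and 5 were above all vehicle hearts and hearts 1 and 4 were not, so the groups overlapped, with a difference of 0.13 between their means. Sparc was counted with the glycoproteins by choice, and its own log2 change was -0.09. The result of counting it with the basement membrane genes is not reported here. Set against the 8 collagens alone, the mean of the basement membrane genes stood at -0.04 to 0.14 in digoxin hearts and -0.22 to -0.09 in vehicle hearts. These groups did not overlap, but the gap between them depended on Col4a1 and Col4a2. Without that pair, digoxin heart 1 and vehicle heart 1 stood about level in this score. Their basement membrane means were then 0.0038 and -0.0216, against collagen means of 0.0454 and 0.0201. No test is given for such scores, since the genes were chosen with earlier results known.

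On the basement membrane side, the digoxin minus vehicle difference was 0.07 with the collagen IV pair and 0.02 without it, and on the interstitial side it was -0.06 over all 13 genes and -0.13 over the 8 collagens. The basement membrane mean was -0.03 to 0.05 in digoxin hearts and -0.07 to -0.05 in vehicle hearts, with no overlap. Without Col4a1 and Col4a2 it was -0.03 to 0.04 in digoxin hearts and -0.02 in each vehicle heart, with overlap. The mean of Col4a1 and Col4a2 minus that of Col1a1 and Col1a2 was -0.14, 0.19, 0.21, -0.08 and 0.27 in digoxin hearts, against -0.46, -0.43 and -0.41 in vehicle hearts. Every digoxin heart was higher here, and the vehicle hearts lay close together. The digoxin minus vehicle difference was 0.43 for the collagen IV pair alone and -0.09 for the collagen I pair. This score therefore mostly restates the calls of Col4a1 and Col4a2 and is no separate evidence on the compartments.

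The adhesive and matricellular glycoproteins varied more between hearts of one group than between the groups. None of 5 passed, and the median log2 change was 0.07. Thbs1, the gene of thrombospondin 1, which binds and activates latent TGF-beta, read 0.97, 0.48, -0.41, 0.32 and -0.29 in digoxin hearts, against -0.11, 0.10 and 0.00 in vehicle hearts. Postn, the gene of the fibroblast protein periostin, read 0.97, 0.25, -0.15, 0.46 and -0.31 in digoxin hearts, against 0.40, 0.38 and 0.09 in vehicle hearts. In both genes hearts 1, 2 and 4 were high and hearts 3 and 5 low within the digoxin group. Their changes were 0.22 (95% interval -0.43 to 0.87) and -0.05 (-0.64 to 0.54).

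Fn1, the gene of fibronectin, read 0.42, 0.15, 0.03, 0.71 and 0.03 in digoxin hearts, against 0.33, 0.38 and -0.11 in vehicle hearts. Tnc, the gene of tenascin C, a matrix protein of injured tissue, read 0.00, 0.00, 0.06, 0.66 and -0.09 in digoxin hearts, against -0.07, -0.14 and 0.19 in vehicle hearts. Heart 4 of the digoxin group was highest for both, and the changes were 0.07 (95% interval -0.33 to 0.47) and 0.13 (-0.24 to 0.51). Sparc, which encodes a collagen-binding glycoprotein, was even between digoxin hearts, at -0.04, 0.01, -0.01, -0.05 and -0.06, against -0.14, 0.15 and 0.16 in vehicle hearts. Its change was -0.09 (95% interval -0.25 to 0.07).

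Contractile smooth muscle genes were highest in digoxin hearts 1 and 4. The list of 10 pericyte and smooth muscle markers had a mean of 0.34, 0.16, 0.02, 0.27 and 0.05 in digoxin hearts 1 to 5, against 0.16, 0.03 and 0.02 in vehicle hearts. Over its contractile genes Acta2, Myh11, Tagln and Cnn1, a choice made after the values were seen, the mean was 1.16, 0.34, 0.08, 0.77 and 0.08 in digoxin hearts and 0.32, 0.15 and 0.07 in vehicle hearts. Over the 6 other genes of the list, which mark pericytes and other mural cells, it was -0.20, 0.04, -0.03, -0.06 and 0.03 in digoxin hearts and 0.05, -0.04 and -0.01 in vehicle hearts. Digoxin heart 1 was thus highest for the contractile genes and lowest for the others, with the pericyte gene Rgs5 at -0.70. The 2 probe sets of Rgs5 differed, at -1.39 and -0.01 in digoxin heart 1 and at -1.16 and -0.13 in vehicle heart 2. The low Rgs5 value of digoxin heart 1 therefore rests on 1 probe set. None of the 10 markers passed, and centred values cannot show which of them are near 0. In 2 of the 10 every digoxin heart was lower, against 3.76% of all genes, and in none was every digoxin heart higher. The 9 markers of atrial cardiomyocytes had list means of -0.34 to 1.46 in digoxin hearts and 0.20 to 1.97 in vehicle hearts. All 9 had a negative log2 change (median -0.54), against 55.6% of all genes, and none passed the test. Less atrium in a sample and less RNA per atrial cell cannot be told apart. The part of these markers in the glycoprotein values was not tested. Without digoxin replicates 1 and 4 together, chosen after the values were seen, Col4a1 (adjusted p = 0.024) and Col4a2 (adjusted p = 0.039) were the members past the test. Hearts 1 and 4 were the lowest digoxin hearts for both genes, so leaving them out raises both changes. That fit is therefore no check on the calls.

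**Figure D4:**
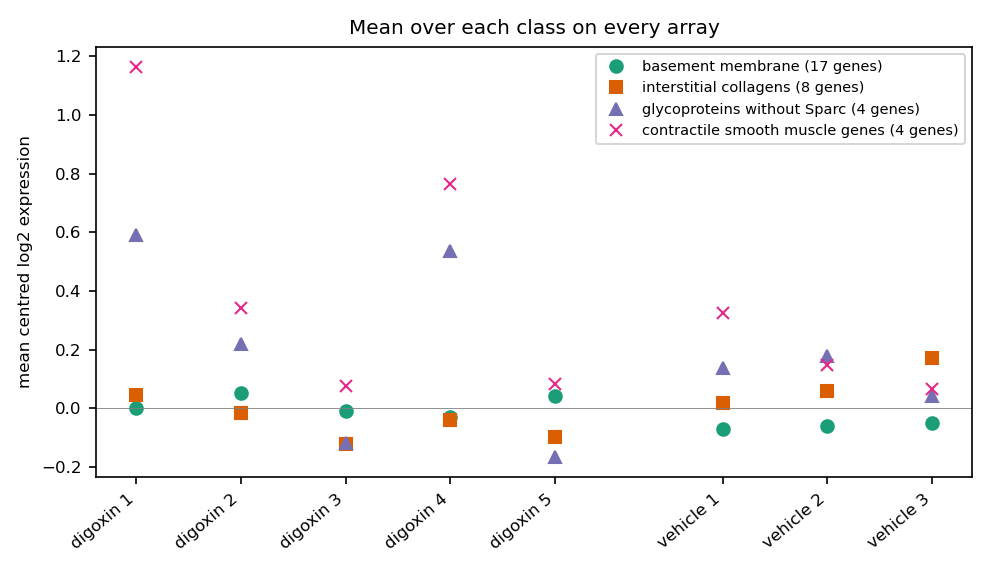
Mean centred log2 expression (vertical axis) over 17 basement membrane genes, 8 interstitial collagens, 4 glycoproteins (Fn1, Postn, Tnc, Thbs1) and 4 contractile smooth muscle genes on each array, digoxin at left and vehicle at right. The glycoprotein and smooth muscle means are highest in digoxin hearts 1 and 4, and the basement membrane means of all digoxin hearts lie above those of the vehicle hearts.

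Of the 8 remodelling genes measured none passed, with a median log2 change of 0.11. Lox, the gene of the lysyl oxidase that crosslinks collagen and elastin, came closest. It read 0.56, 0.28, 0.26, 0.51 and 0.36 in digoxin hearts, against -0.06, 0.08 and -0.02 in vehicle hearts. All digoxin hearts were higher, with hearts 1 and 4 highest, and the log2 change was 0.39 (SE 0.08, 95% interval 0.21 to 0.57, adjusted p = 0.058 in limma). With quantile normalization Lox passed (adjusted p = 0.020). Timp3, an inhibitor that binds to the matrix, read 0.50, 0.26, 0.41, 0.45 and 0.22 in digoxin hearts, against 0.00, 0.09 and 0.12 in vehicle hearts. Its groups did not overlap either, and its change was 0.30 (SE 0.07, 95% interval 0.13 to 0.46, adjusted p = 0.11), passing with quantile normalization alone among 20 alternatives (adjusted p = 0.049).

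The proteases themselves gave overlapping groups. Mmp14, a membrane-bound metalloproteinase that activates the gelatinase MMP2, had a log2 change of 0.20 (95% interval 0.02 to 0.38, adjusted p = 0.35), with -0.05 to 0.27 in digoxin hearts and -0.12 to 0.00 in vehicle hearts. Mmp2 itself had -0.01 (-0.22 to 0.20), and Mmp3, the gene of stromelysin 1, had -0.09 (-0.24 to 0.05). Adamts1, a protease that cuts versican, had 0.28 (-0.14 to 0.69), with digoxin heart 1 at 0.69 and the other digoxin hearts between -0.11 and 0.11. Adamts4, which cuts aggrecan and versican, had 0.02 (-0.22 to 0.25), and the soluble inhibitor gene Timp1 had -0.04 (-0.17 to 0.09).

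**Figure D5:**
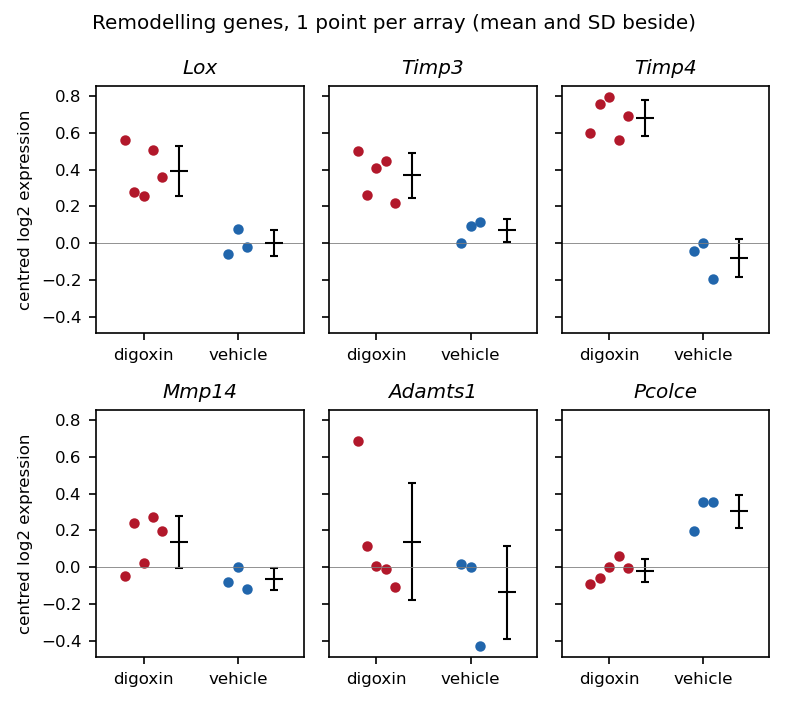
Centred log2 expression (vertical axis) of 6 remodelling genes on 5 digoxin arrays (left, red) and 3 vehicle arrays (right, blue), with mean and SD beside the points. Lox, Timp3 and Timp4 are higher in every digoxin heart and Pcolce is lower in every digoxin heart, while Mmp14 and Adamts1 overlap.

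Other genes of the matrix were read from 6 further lists, in which 2 of 131 measured genes rose and 1 fell. These are 2.29% of the 131, against 1.36% of all genes past the test in either direction, 0.947% that rose and 0.415% that fell. Among 23 other proteases and inhibitors, Timp4 rose, a TIMP abundant in heart. It read 0.60, 0.76, 0.79, 0.56 and 0.69 in digoxin hearts, against -0.04, 0.00 and -0.20 in vehicle hearts. The groups were far apart, and the log2 change of 0.76 (SE 0.07, adjusted p = 0.0013 in limma), or 1.69 times the vehicle level, was larger than that of any of the 38 matrix genes above. It passed in each of the 20 alternative settings except the replicate block.

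Pcolce, the enhancer of the proteinase that trims fibrillar procollagens, fell, as 1 of 19 genes of collagen processing and crosslinking. It read -0.09, -0.06, 0.00, 0.06 and -0.00 in digoxin hearts, against 0.20, 0.35 and 0.35 in vehicle hearts. All digoxin hearts were lower, with a log2 change of -0.32 (SE 0.06, adjusted p = 0.031 in limma), and the call ended on removal of digoxin heart 1, 2, 3 or 5, or of vehicle heart 2 or 3 (largest adjusted p = 0.11). Among 15 genes of TGF-beta signalling Tgfbr3 rose, the gene of the co-receptor betaglycan, with a log2 change of 0.46 (SE 0.09, adjusted p = 0.0493 in limma). Its call ended on removal of any single array except vehicle heart 1 (adjusted p 0.032 to 0.13).

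No gene passed in the other lists with all arrays. Of 17 other basement membrane genes the smallest p belonged to Tinagl1, a secreted basement membrane protein gene (log2 change 0.45, SE 0.10, adjusted p = 0.096), and Lama3, the alpha chain of epithelial laminins (0.19, SE 0.05, adjusted p = 0.16). Of 32 other interstitial matrix genes it belonged to Eln, the gene of elastin (0.41, SE 0.09, adjusted p = 0.076), and Thbs2, the gene of thrombospondin 2 (0.24, SE 0.08, adjusted p = 0.27). Elastin passed with quantile normalization (adjusted p = 0.0165) and with the atrial covariate (adjusted p = 0.011), where Thbs2 passed too (adjusted p = 0.027). Lama3 passed without vehicle replicate 3 (0.24, adjusted p = 0.039), after its removal along with digoxin heart 4 (adjusted p = 0.043) and with array weights (adjusted p = 0.025). Of 25 matrix receptors it belonged to the hyaluronan receptor gene Cd44 (-0.29, SE 0.07, adjusted p = 0.11) and the integrin gene Itgb6 (-0.49, SE 0.13, adjusted p = 0.14). Cd44 passed in the same 3 settings as Lama3, with -0.36 and an adjusted p of 0.024 without vehicle replicate 3, 0.022 without both hearts and 0.0077 with array weights. For Lama3 and Cd44 vehicle heart 3 was the vehicle heart nearest the digoxin hearts, so both removals widen the difference. Medians over the 6 lists lay between -0.09 and 0.01.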

How the data were processed

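Heart RNA of 5 digoxin and 3 vehicle mice was measured on Affymetrix arrays. The authors used Robust Multi-array Average, per the design text, and the submitters' processing notes list limma without a version. The deposited log2 values were centred per probe set on a value not given in the sources used here, which cancels in differences. The design text counts 4 vehicle samples, of which 3 were analysed here.

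Of 34351 probe sets, 23521 carry 1 symbol, 1814 several and 9016 none. Those with 1 were averaged per gene (22180 genes). limma 3.58.1 in R 4.3.3 (lmFit, eBayes, two-sided) compared the groups over all genes, with Benjamini-Hochberg adjustment and a threshold of 0.05. It was tested on simulated data. Dim genes could not be filtered, since centring removes levels.

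Members and lists were chosen with earlier results of these data known. Values per array were due for members past the test, the 2 of smallest p in each class, the collagen pairs and the largest rise and fall, and other members were added after their values were seen. From each further list come genes past the test, or else the 2 of smallest p. Alternatives covered normalization, probe sets, variance model, array weights, threshold, replicate block, arrays left out, an atrial covariate and the class of Sparc. Quantile normalization was applied to values already centred per probe set. It made the distribution of deviations, not of levels, the same on every array. Labels do not say more than that arrays are separate samples, so p-values cover the spread among these arrays. The leading numbers of the sample descriptions, which are not the replicate numbers used here, run from vehicle to digoxin. Their order therefore cannot be told apart from treatment.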

Additional observations from a re-analysis of the deposited data

Results flagged for a closer look

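Among the 5 digoxin hearts, 1 array lay far from the other 4 in 3 genes. For Tnc it was heart 4, at 0.66 against -0.09 to 0.06 in the others. For Adamts1 it was heart 1, at 0.69 against -0.11 to 0.11 in the others. For Tinagl1 it was heart 3, at 0.80 against 0.46 to 0.50 in the others. In all 50 items were looked at in this way, and chance marks about 1 in 20 groups.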

How the results depend on the processing

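The 38 members were refitted under 20 alternatives, 19 of them for genes with 2 probe sets, and no member that passed with all arrays changed sign. Col4a1 kept its call in 18 of 20 and Col4a2 in 12 of 20. With all arrays 2 members passed. The count was 0 with the replicate block, where 12 of all genes passed in place of 302, and 1 at a threshold of 0.01 (118 of all genes). With 1 array left out it was 1 to 3, and all genes past the test numbered 166 to 374. With quantile normalization it was 3, and these were Lama4, Lox and Timp3 in place of the collagen IV pair. The cause was not tested. Array weights gave 614 genes (294 rose, 320 fell), a threshold of 0.1 gave 493, removal of vehicle replicate 3 along with digoxin replicate 4 gave 500, and removal of digoxin replicates 1 and 4 together, chosen after seeing the data, gave 122. In that last fit the basement membrane median was 0.0565, against 0.02, but the hearts left out were the lowest digoxin hearts for Col4a1 and Col4a2. With 1 array left out that median lay between 0.02 and 0.05, the interstitial median between -0.11 and -0.06 and the compartment difference between 0.08 and 0.17. Under the replicate block, which uses replicates 1 to 3 of both groups, Col4a1 stood at 0.48 (adjusted p = 0.17) and Col4a2 at 0.39 (adjusted p = 0.33). The labels do not say whether the numbers pair the samples. Deviations of same-numbered arrays correlated at -0.20, -0.02 and 0.02, and digoxin replicate 1 correlated best with vehicle replicate 3 (0.19). With so few arrays these correlations cannot decide whether the samples were paired. The fit with the block drops 2 arrays and spends degrees of freedom on the block.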

Other observations

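Genes that act on procollagen before it forms fibrils were described above by their count alone. Beside Pcolce, 3 of them had negative log2 changes with an unadjusted p under 0.05, and they are named here after their values were seen. They were Bmp1, the procollagen C-proteinase (-0.23, SE 0.06, adjusted p = 0.16 in limma), its relative Tll1 (-0.26, SE 0.09, adjusted p = 0.27) and Serpinh1, the collagen chaperone HSP47 (-0.22, SE 0.08, adjusted p = 0.32). Bmp1 was lower in every digoxin heart, and the groups of the other 2 overlapped. On the positive side stood Tgm2, a crosslinking transglutaminase (0.27, SE 0.08, adjusted p = 0.21), Plod2, a lysyl hydroxylase (0.20, SE 0.08, adjusted p = 0.37), and P4ha2, a prolyl hydroxylase subunit (0.19, SE 0.08, adjusted p = 0.37). In the list of 19 genes, 7 had an unadjusted p under 0.05, against 12.3% of all genes. In the same list 12 changes were negative (63.2%), against 55.6% of all genes.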
